A study of Mus musculus with 13 samples.

Results

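The genes described here are 37 genes of podocyte identity and cytoskeleton, without the core of the slit diaphragm. The genes encode transcription factors, apical membrane proteins, actin-associated proteins, adhesion receptors, signalling and scaffold proteins, antigens of membranous nephropathy and an extracellular sulfatase. They were chosen by symbol from a named list, and all 37 were found among the 46958 genes of the count table. All 37 also passed the filter on low counts, which kept 16738 genes for testing.

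Messenger RNA was sequenced from mouse glomeruli purified with magnetic beads. The libraries comprised 4 labelled LCDD, a genotype that the labels also name kFRA, 4 labelled DH-LMP2A and 5 labelled wild type (WT). All mice were 6 months old and of a mixed C57/BL6x129/SVxBALB/c background. Every library pooled 3 mice except WT replicates 3, 4 and 5, which came from 1 mouse each. LCDD stands for light chain deposition disease, a kidney disease caused by deposits of a monoclonal light chain, and the series title concerns the toxicity of free light chains to glomeruli. The labels do not describe DH-LMP2A. In the published model of this name B cells survive without an immunoglobulin heavy chain, and the LCDD mice carry a human kappa light chain gene on that background. Whether that holds for these LCDD libraries is not stated in the labels, which also give no sex. Each title carries 1 of 4 numeric codes whose meaning is not stated, called codes 1 to 4 here in ascending order. LCDD and DH-LMP2A replicates 1 to 4 carry codes 1 to 4, WT replicate 1 carries code 1, WT replicate 2 code 3, and WT replicates 3, 4 and 5 code 4.

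Podocytes are the epithelial cells that wrap the glomerular capillaries with interdigitating foot processes. Their identity is set by transcription factors such as WT1, TCF21 and LMX1B. Their shape rests on an actin cytoskeleton tied below to the basement membrane through integrin alpha3 beta1 and dystroglycan, and their apical face carries the negatively charged sialomucin podocalyxin. Loss of foot processes is the common lesion of proteinuric kidney disease, and mutations in several of the genes described here cause it.

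Total counts ran from 16687509 to 30587890 per library. All 4 podocyte markers kept out of the gene list, Nphs1 and Cdkn1c among them, were over 3 counts in every library, so the labelled tissue carried its podocyte RNA. Their summed level in CPM (counts scaled to the library size, here with TMM factors) ran from 2120 to 11100 in LCDD, 5600 to 12800 in DH-LMP2A and 4490 to 11800 in WT. LCDD replicates 1 and 2 were at 2120 and 3570 CPM, below every other library. Mesangial markers (6 of 6 over 3 counts in every library) summed to 3990 to 7580 CPM in LCDD, 2650 to 3620 in DH-LMP2A and 3310 to 4110 in WT. Proximal tubule markers (8 of 8) summed to 415 to 1320 CPM in LCDD, 356 to 2990 in DH-LMP2A and 46.6 to 2090 in WT. In bulk glomeruli, fewer podocytes and less RNA per podocyte cannot be told apart.

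The members covered a wide range of levels. Per kilobase of exon, Podxl, which encodes podocalyxin, had the highest level in WT at 2310 ± 624 CPM per kb (SD, n = 5). Sema3g, a secreted semaphorin, followed at 738 ± 302 CPM per kb (SD, n = 5). Itgb1, the beta1 integrin chain, had 413 ± 42.6 CPM per kb (SD, n = 5) and Synpo, the actin-associated synaptopodin, 367 ± 80.4, a difference smaller than their spread. The calcium channel gene Trpc6 was lowest at 3.75 ± 0.77 CPM per kb (SD, n = 5).

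Members also differed in how much they varied between libraries. The highest library exceeded the lowest 13.8-fold for Thsd7a, 12.8-fold for Ptpro, 8.01-fold for Rhpn1, 7.95-fold for Ddn and 7.87-fold for Magi2. The same ratio was 1.53 for Wtip, 1.58 for Foxc1, 1.63 for Arhgdia, 1.72 for Myo1e and 1.74 for Cd151. The steadier group held cytoskeletal regulators and a tetraspanin that many cell types make, beside the forkhead factor Foxc1. LCDD replicate 1 was the lowest of the 13 libraries for 28 of the 37 members.

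**Figure D1:**
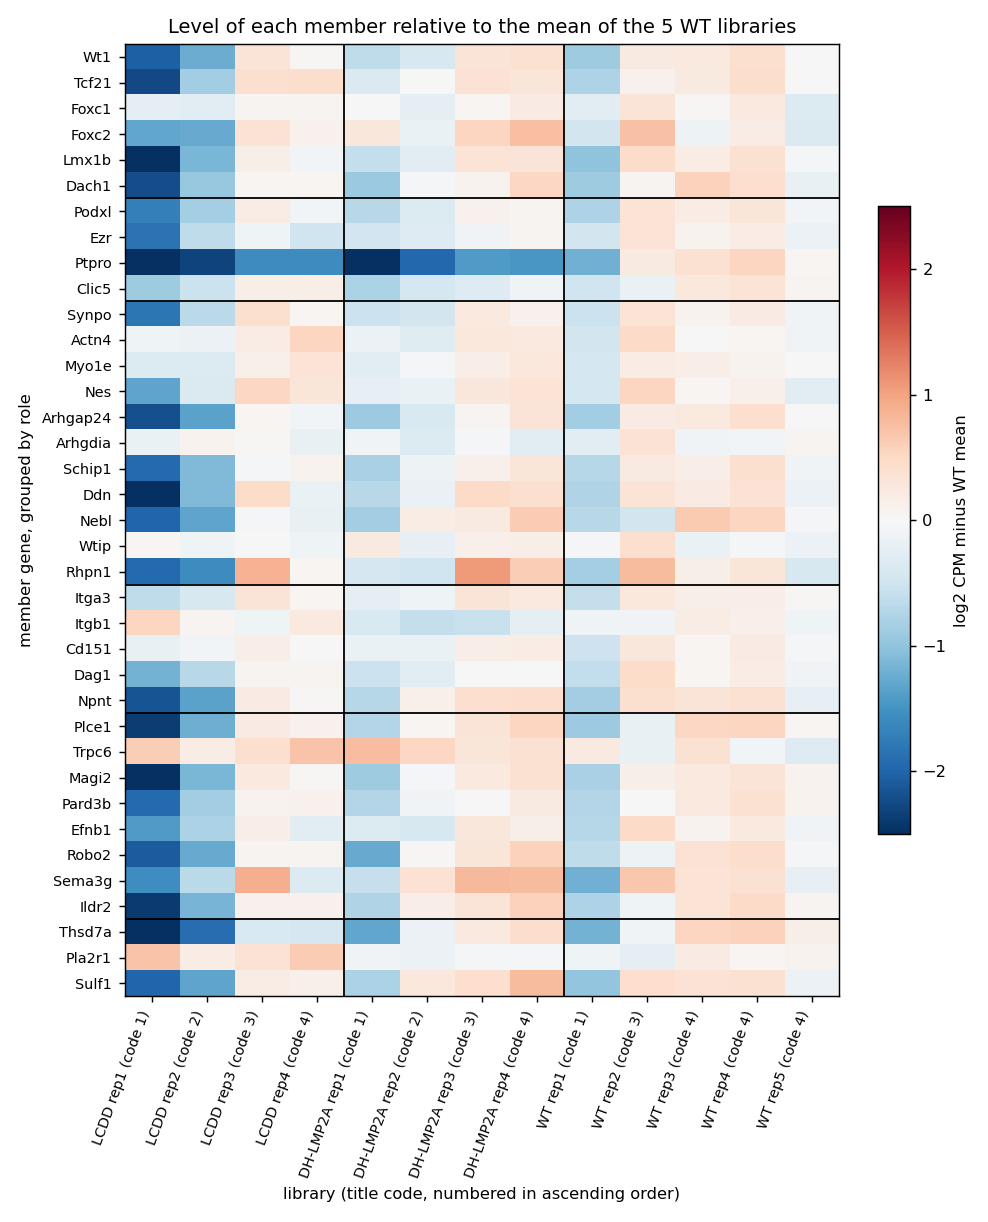
Colour shows the level of each of the 37 members (rows, grouped by role) in each of the 13 libraries (columns, with title code) as log2 CPM minus the mean of the 5 WT libraries, with the colour scale ending at 2.5 in each direction. LCDD replicates 1 and 2 are blue for most members, WT replicate 1 is blue for many, and the Ptpro row is blue in all 8 LCDD and DH-LMP2A libraries.

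Against DH-LMP2A, most members had lower point estimates in LCDD, but few differences passed the test. The log2 fold change was negative for 32 of the 37 members and positive for 5 (Itgb1, Pla2r1, Clic5, Arhgdia and Actn4). Its median was -0.41, beside -0.01 over all genes tested, of which 49% were positive. Without LCDD replicate 1, 12 members had positive estimates. The edgeR quasi-likelihood test at an adjusted p under 0.05 called 1 member higher, Pla2r1, and 0 lower. Over all genes it called 2.00%, with 1.30% higher and 0.693% lower. Only 2 members, Pla2r1 and Itgb1, had an unadjusted p under 0.05, beside 13.1% of all genes. DESeq2 called the same 2 at its adjusted threshold, beside 812 of the 16738 genes.

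In each of the 4 codes, the LCDD and DH-LMP2A libraries had positively correlated deviations from their genotype means. Some libraries of different codes did too, so the pairing by code is not certain. The comparison was repeated with the code as a block. The blocked fit held all 13 libraries, so the WT libraries also entered the estimates of the code differences and of the spread. That fit called 2 members higher (Pla2r1 and Itgb1) and 2 lower (Thsd7a and Sulf1), where 6.10% of all genes were called, 3.24% higher and 2.86% lower. In it 23 members had an unadjusted p under 0.05, beside 22.5% of all genes, and the median log2 fold change of the members was -0.56.

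The transcription factors and cofactors had lower estimates in all 6 cases, with a median log2 fold change of -0.47, and none was called (edgeR, 0 at an unadjusted p under 0.05 without the block and 4 with it). Wt1, the zinc finger factor that maintains podocyte identity, had 152, 267, 784 and 640 CPM in LCDD replicates 1 to 4, 403, 474, 782 and 816 in DH-LMP2A, and 341, 733, 738, 834 and 634 in WT. LCDD replicates 1 and 2 were below all other libraries, while replicates 3 and 4 lay inside the range of both other genotypes. Its log2 fold change against DH-LMP2A was -0.42 ± 0.45 (SE, adjusted p = 0.759, edgeR). Foxc2, a forkhead factor of the developing podocyte, had 52.3, 53.3, 166 and 139 CPM in LCDD, 156, 115, 187 and 216 in DH-LMP2A, and 93.8, 215, 119, 147 and 100 in WT. The groups overlapped, and its log2 fold change was -0.72 ± 0.39 (SE, adjusted p = 0.474, edgeR) and, with the block, -0.87 ± 0.23 (SE, adjusted p = 0.0519, edgeR). Tcf21, Lmx1b and Dach1 had estimates of -0.33, -0.58 and -0.52, and Foxc1 one of -0.10.

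Of the 4 genes of the apical membrane and its linkers, Podxl, Ezr and Ptpro had negative estimates against DH-LMP2A, and Clic5, which encodes a chloride intracellular channel protein linked to ezrin, had 0.19 ± 0.27 (SE). Podxl had 3740, 6780, 13900 and 11600 CPM in LCDD, 7530, 9650, 13300 and 12800 in DH-LMP2A, and 7170, 15500, 13900, 15100 and 11600 in WT. The groups overlapped, and the log2 fold change was -0.26 ± 0.41 (SE, adjusted p = 0.845, edgeR). Ezr, which encodes the membrane to actin linker ezrin, had an estimate of -0.46 ± 0.29 (SE, adjusted p = 0.571, edgeR).

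The 11 genes of the actin cytoskeleton and intermediate filaments had a median log2 fold change of -0.17 against DH-LMP2A, with 9 negative and none called (edgeR, 0 at an unadjusted p under 0.05 without the block and 5 with it). Synpo had 980, 2150, 4500 and 3550 CPM in LCDD, 2360, 2490, 4060 and 3670 in DH-LMP2A, and 2350, 4360, 3650, 3920 and 3220 in WT. Its highest and its lowest library were both LCDD, and the log2 fold change was -0.17 ± 0.39 (SE, adjusted p = 0.898, edgeR). Nebl, an actin-binding gene of the nebulin family, had 58.4, 92.6, 222 and 202 CPM in LCDD, 127, 261, 271 and 358 in DH-LMP2A, and 142, 167, 362, 335 and 227 in WT. It had the lowest estimate of this role, -0.82 ± 0.44 (SE, adjusted p = 0.472, edgeR). Actn4, the crosslinker alpha-actinin-4, and Arhgdia, a GDP dissociation inhibitor, are both mutated in inherited nephrotic disease. They had 0.11 ± 0.23 (SE) and 0.14 ± 0.15 (SE).

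Among the 5 genes of adhesion to the basement membrane, Itgb1 stood on the other side of 0 from its partners. Itgb1 encodes the beta1 chain that pairs with the alpha3 chain of Itga3 to bind laminin, and lies on chromosome 8 from 128685654 to 128733200 (GRCm38). It had 2440, 1770, 1550 and 2000 CPM in LCDD, 1290, 1110, 1130 and 1420 in DH-LMP2A, and 1550, 1580, 1910, 1840 and 1560 in WT. Every LCDD library was above every DH-LMP2A library, and every DH-LMP2A library was below every WT library. The log2 fold change against DH-LMP2A was 0.65 ± 0.18 (SE), with adjusted p-values of 0.091 and, with the block, 0.0272 (0.64 ± 0.14, SE, edgeR). With the block and the tubule markers as a covariate that call was lost (0.55 ± 0.14, SE, adjusted p = 0.0604, edgeR). It was higher in LCDD within each of the 4 codes, by 0.46 to 0.92. Against WT, LCDD differed by 0.20 ± 0.17 (SE, adjusted p = 0.758, edgeR) and DH-LMP2A by -0.45 ± 0.17 (SE, adjusted p = 0.302, edgeR). Many glomerular cells make this chain, and the mesangial markers were higher in LCDD within each of the 4 codes too, by 0.34 to 0.90 on the log2 scale, and their part in the Itgb1 difference was not tested.

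Itga3 had 631, 741, 1220 and 1000 CPM in LCDD, 819, 913, 1230 and 1150 in DH-LMP2A, and 644, 1170, 1080, 1100 and 988 in WT. Its groups overlapped, with a log2 fold change of -0.19 ± 0.24 (SE, adjusted p = 0.799, edgeR). Npnt, which encodes the basement membrane protein nephronectin, a ligand of integrin alpha8 beta1, had 224, 390, 1130 and 1010 CPM in LCDD, 610, 1090, 1330 and 1360 in DH-LMP2A, and 540, 1300, 1240, 1290 and 855 in WT. Its estimate was -0.67 ± 0.47 (SE, adjusted p = 0.613, edgeR). The tetraspanin gene Cd151 and the dystroglycan gene Dag1 had -0.03 ± 0.17 (SE) and -0.14 ± 0.29 (SE).

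All 8 signalling, scaffold and guidance genes had negative estimates against DH-LMP2A, with a median of -0.55 and none called (edgeR, 0 at an unadjusted p under 0.05 without the block and 7 with it). Ildr2, a membrane protein of the immunoglobulin superfamily, had 117, 274, 667 and 660 CPM in LCDD, 363, 692, 764 and 919 in DH-LMP2A, and 359, 572, 779, 855 and 645 in WT. Its estimate was -0.67 ± 0.47 (SE, adjusted p = 0.616, edgeR). Plce1, a phospholipase C gene mutated in nephrotic syndrome, and Robo2, a receptor for the guidance cue SLIT, had -0.61 ± 0.49 (SE) and -0.60 ± 0.47 (SE). Trpc6 was at 12.6 to 18.2 CPM in LCDD and 13.9 to 19.2 in DH-LMP2A, against 8.92 to 14.5 in WT. It differed by -0.03 ± 0.18 (SE) between the first 2 and by 0.46 ± 0.17 (SE, adjusted p = 0.26, edgeR) between LCDD and WT.

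**Figure D2:**
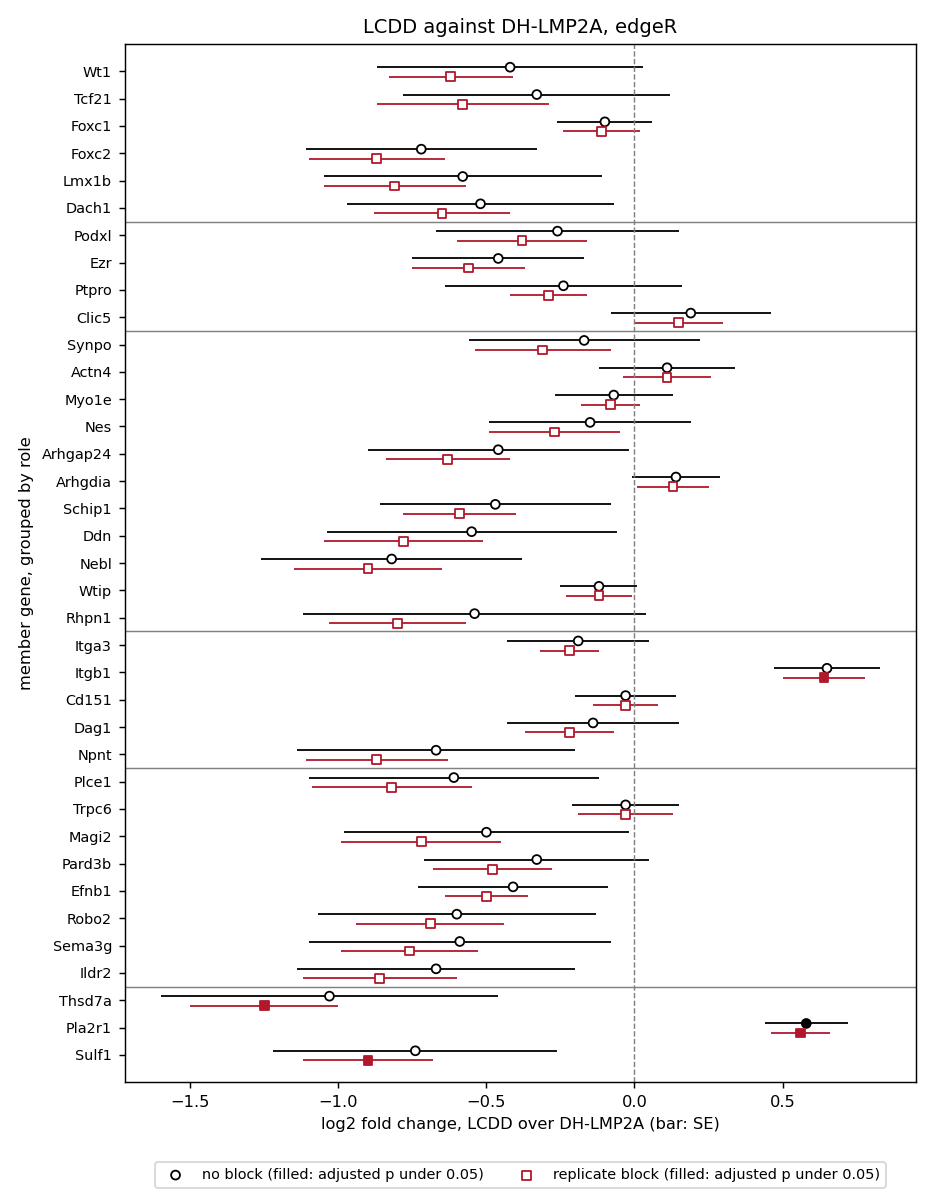
Points show the log2 fold change of LCDD over DH-LMP2A for each of the 37 members (rows, grouped by role) with 1 SE to each side, without the title code as a block (black circles) and with it (red squares), filled where the edgeR adjusted p was under 0.05. Most points lie left of 0, the bars are shorter with the block, and the filled points are Pla2r1 in both fits and Itgb1, Thsd7a and Sulf1 with the block.

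The remaining 3 members are the target antigens of membranous nephropathy, an autoimmune podocyte disease, and the extracellular sulfatase Sulf1, which trims heparan sulfate. The antigens are the phospholipase A2 receptor (Pla2r1) and thrombospondin type 1 domain containing 7A (Thsd7a), and they had differences of opposite sign. Pla2r1, on chromosome 2 from 60417543 to 60553308 (GRCm38), had 358, 247, 279 and 339 CPM in LCDD, 205, 195, 210 and 209 in DH-LMP2A, and 201, 185, 251, 226 and 232 in WT. Every LCDD library was above every DH-LMP2A library, and LCDD replicate 2 was the only LCDD library below the highest WT library. Pla2r1 and Itgb1 were the 2 of 37 members whose LCDD libraries lay wholly above those of DH-LMP2A, as did 4.74% of all genes. No member's LCDD libraries lay wholly below those of DH-LMP2A, against 2.89% of all genes.

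Pla2r1 rose 1.49-fold against DH-LMP2A, or by 0.58 ± 0.14 on the log2 scale (SE, adjusted p = 0.0484, edgeR). With the block it was 0.56 ± 0.10 (SE, adjusted p = 0.0134, edgeR), and within codes LCDD was higher by 0.34 to 0.80 in 4 of 4. The call without the block rests on a narrow margin: the estimate stayed between 0.50 and 0.65 in 23 alternative settings, and the call held in 7 of them. Leaving out LCDD replicate 1, LCDD replicate 4, any single DH-LMP2A library, or WT replicate 1, 3, 4 or 5 ended it, with adjusted p from 0.0532 to 0.141. Against WT the log2 fold change was 0.48 ± 0.13 (SE, adjusted p = 0.0845, edgeR), and DH-LMP2A differed from WT by -0.10 ± 0.13 (SE, adjusted p = 0.797, edgeR). LCDD replicate 1, the highest library for Pla2r1, had the lowest summed podocyte markers (2120 CPM) and the highest summed mesangial markers (7580 CPM). The mesangial markers were higher in LCDD within each of the 4 codes, by 0.34 to 0.90 on the log2 scale. Their part in the Pla2r1 difference was not tested. None of the 10 other genes tested within 1 Mb of Pla2r1 was called in any of the 3 comparisons without the block. With the block, the neighbour Cd302 was called higher in LCDD against DH-LMP2A (0.67, adjusted p = 0.0469, edgeR), where 6.10% of all genes were called.

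Thsd7a, on chromosome 6 from 12311610 to 12749410, had 105, 256, 740 and 715 CPM in LCDD, 391, 872, 1140 and 1300 in DH-LMP2A, and 421, 905, 1400, 1440 and 1070 in WT. LCDD replicates 1 and 2 were below all other libraries, and the groups overlapped because DH-LMP2A replicate 1 and WT replicate 1 were low as well. The log2 fold change against DH-LMP2A was -1.03 ± 0.57 (SE, adjusted p = 0.487, edgeR). With the block Thsd7a fell by 1.25 ± 0.25 (SE, adjusted p = 0.0213, edgeR) on the log2 scale, and within codes the difference ran from -1.90 to -0.63. Sulf1 had 55.6, 88.2, 251 and 240 CPM in LCDD, 127, 261, 294 and 376 in DH-LMP2A, and 110, 295, 280, 284 and 197 in WT. It had a log2 fold change of -0.74 ± 0.48 (SE, adjusted p = 0.575, edgeR) without the block, and fell by 0.90 ± 0.22 (SE, adjusted p = 0.04, edgeR) with it. With the block and the tubule markers as a covariate the call of Sulf1 was lost (-0.90 ± 0.24, SE, adjusted p = 0.077, edgeR), and that of Thsd7a was not (-1.20 ± 0.27, SE, adjusted p = 0.0462, edgeR). Both genes were lower in LCDD within each of the 4 codes. The 4 podocyte markers were lower within each code too. With their mean log2 level as a covariate, without the block, the estimates were -0.28 ± 0.23 (SE, adjusted p = 0.655, edgeR) for Thsd7a and -0.07 ± 0.15 (SE, adjusted p = 0.914, edgeR) for Sulf1.

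Within codes, the members' differences were not of one size. Under code 1, LCDD was lower than DH-LMP2A for 34 of 37 members, with a median difference of -1.13 on the log2 CPM scale, and under code 2 for 31 with a median of -0.78. Under code 3 it was lower for 22 with a median of -0.01, and under code 4 for 28 with a median of -0.25. The median over all genes was between -0.02 and 0 in every code. The mean log2 level of the 4 podocyte markers differed by -1.52, -1.06, -0.19 and -0.52 in the same order of codes. That of the proximal tubule markers differed by -1.31, -0.71, -1.25 and 0.36. With 1 library of each genotype per code, the difference between codes was not tested. In all, 18 of 37 members were lower in LCDD in 4 of 4 codes, and 2, Itgb1 and Pla2r1, were higher in 4 of 4, beside 15.9% and 17.2% of all genes tested. Without the code 1 and code 2 libraries of both genotypes, a setting chosen after the values were seen, 11 of 37 members had positive estimates and 0 were called by edgeR.

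**Figure D3:**
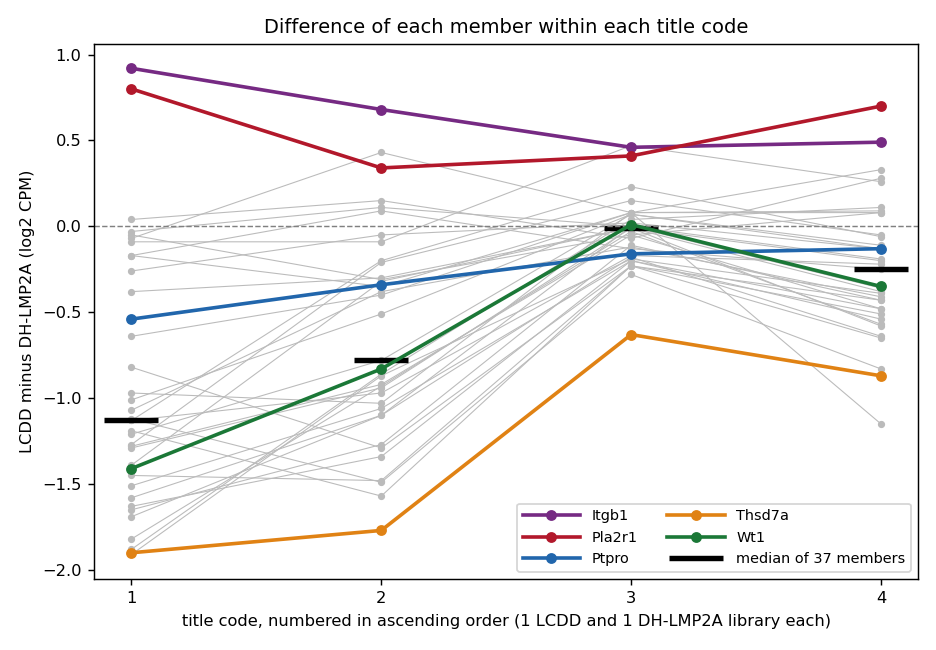
Lines show the LCDD minus DH-LMP2A difference (log2 CPM) of each of the 37 members under each title code (1 library of each genotype per code), with 5 members in colour, the median of all 37 as black bars, and lines drawn only to join the points of a gene. The medians are -1.13, -0.78, -0.01 and -0.25, Itgb1 and Pla2r1 lie above 0 under every code, and Thsd7a and Ptpro lie below 0 under every code.

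When the mean log2 level of the 4 podocyte markers was added to the fit as a covariate, the signs of the members changed. Of the 37 members 28 then had positive estimates for LCDD against DH-LMP2A, with a median of 0.13. The edgeR test called 0 of them (6 at an unadjusted p under 0.05, beside 16.5% of all genes) and 2.26% of all genes. Pla2r1 had 0.56 ± 0.15 (SE, adjusted p = 0.0682, edgeR) and Itgb1 0.57 ± 0.17 (SE, adjusted p = 0.102, edgeR), so neither estimate moved by more than its SE. Thsd7a went from -1.03 to -0.28 ± 0.23 (SE), and Wt1 from -0.42 to 0.17 ± 0.11 (SE).

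Against WT, LCDD had lower estimates for 33 of 37 members, with a median log2 fold change of -0.48 beside 0.01 over all genes. This comparison shares its LCDD libraries with the one against DH-LMP2A. The edgeR test called 1 member, Ptpro, which was lower, where 1.84% of all genes were called and 0.544% were called lower. In all, 5 members had an unadjusted p under 0.05 (Ptpro, Pla2r1, Trpc6, Ezr and Thsd7a), beside 12% of all genes. Without LCDD replicate 1, or without WT replicate 2, 8 members had positive estimates in place of 4. The count was 17 with the proximal tubule markers as a covariate and 23 with the podocyte markers, so the lower direction did not hold in those fits. LCDD exceeded WT in the mean log2 level of the tubule markers by 1.61 under code 3 and 2.11 under code 4, and the difference was -0.89 under code 1. The other members with the lowest estimates were Thsd7a at -1.21 ± 0.55 (SE, adjusted p = 0.406, edgeR) and Nebl at -0.78 ± 0.42 (SE, adjusted p = 0.533, edgeR). By role, the median log2 fold change was -0.45 for the transcription factors, -0.31 for the cytoskeletal genes and -0.53 for the signalling genes.

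In DH-LMP2A against WT, which shares the WT libraries, 17 members had positive and 20 negative estimates, with a median of -0.01, and this split depended on the setting. The positive count was 7 without DH-LMP2A replicate 3, 5 without DH-LMP2A replicate 4, 6 without WT replicate 1, and 33 with the mean log2 level of the proximal tubule markers as a covariate. The edgeR test called 0 of the 37, with 3 at an unadjusted p under 0.05 (Ptpro, Itgb1 and Trpc6), where 0.627% of all genes were called and 12.5% had an unadjusted p under 0.05. DESeq2 called 1, Ptpro, beside 458 of the 16738 genes. Ptpro and Itgb1 were the 2 members whose DH-LMP2A libraries lay wholly below those of WT, as did 2.33% of all genes.

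Ptpro encodes the receptor-type protein tyrosine phosphatase GLEPP1, which sits on the apical membrane of the podocyte foot process, and lies on chromosome 6 from 137252319 to 137463233 (GRCm38). It had 150, 267, 443 and 445 CPM in LCDD, 218, 338, 495 and 486 in DH-LMP2A, and 574, 1550, 1710, 1920 and 1370 in WT. Every LCDD and every DH-LMP2A library was below every WT library. WT replicate 1 was the lowest of the WT libraries, and it still exceeded the highest of the other 8. LCDD and DH-LMP2A overlapped, with a log2 fold change of -0.24 ± 0.40 (SE, adjusted p = 0.86, edgeR) between them.

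Ptpro fell 4.37-fold in LCDD against WT, a log2 fold change of -2.13 ± 0.41 (SE, adjusted p = 0.0176, edgeR). It was the 1 member of 37 whose LCDD libraries lay wholly below those of WT, as did 1.63% of all genes. In DH-LMP2A against WT the log2 fold change was -1.89 ± 0.41 (SE, adjusted p = 0.0592, edgeR), short of the threshold. Within the 3 codes that hold WT libraries, the LCDD minus WT difference in log2 CPM was -1.93, -1.80 and -1.89, and that of DH-LMP2A minus WT was -1.40, -1.64 and -1.77. The last value of each set is against the mean of the 3 single-mouse WT libraries. The codes are not taken to pair libraries with WT, so these differences are descriptive. With the 4 podocyte markers as a covariate the log2 fold changes were -1.49 ± 0.20 (SE, adjusted p = 0.00214, edgeR) for LCDD and -1.89 ± 0.17 (SE, adjusted p = 0.000116, edgeR) for DH-LMP2A. Those fits called 1 of the 37 members each, where 2.45% and 2.95% of all genes were called.

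The estimate was negative in all 24 alternative settings of each comparison with WT, from -2.33 to -1.43 for LCDD and from -2.09 to -0.91 for DH-LMP2A. For LCDD the call was lost in 4 of them: without LCDD replicate 2 (adjusted p = 0.0568, edgeR), without WT replicate 4 (0.0501), without the 3 single-mouse WT libraries (-1.72, 0.285), and with the level of 4 Y-linked genes as a covariate (-2.08, 0.374). The mean log2 CPM of those Y-linked genes ran from 1.98 to 5.55 in LCDD, 3.94 to 5.68 in DH-LMP2A and -3.57 to 2.58 in WT, and its part in the result was not tested beyond that fit.

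Ptpro was also low relative to Podxl, the other major apical gene, in each LCDD and DH-LMP2A library. Per kb, its level was 2.59% to 3.28% of that of Podxl in LCDD and 2.36% to 3.11% in DH-LMP2A, against 6.53% to 10.4% in WT, of which the lowest was WT replicate 1. This ratio was chosen after the values were seen and is given as a description. Of the 17 other genes tested within 1 Mb of Ptpro, 2 were called in LCDD against WT, both higher, where 1.84% of all genes were called. They were Rerg, a RAS-like gene on the 5′ side, with 1.30 ± 0.26 (SE, adjusted p = 0.0191, edgeR), and Arhgdib, a GDP dissociation inhibitor of blood cells, with 0.96 ± 0.21 (SE, adjusted p = 0.0361, edgeR). Eps8, an actin regulator on the 3′ side, had 0.34 ± 0.17 (SE, adjusted p = 0.476, edgeR). The Rerg difference was not particular to LCDD. Rerg was at 12.8 to 35.5 CPM in LCDD and 16.9 to 23.1 in DH-LMP2A, above every WT library at 6.98 to 12. In DH-LMP2A against WT, Rerg had 1.05 ± 0.25 (SE, adjusted p = 0.0975, edgeR) and Arhgdib -0.25 ± 0.21 (SE, adjusted p = 0.663, edgeR). In LCDD against DH-LMP2A, where 2.00% of all genes were called, these neighbours were called in both directions. Arhgdib (1.21 ± 0.23, SE, adjusted p = 0.0165, edgeR) and Pde6h (2.26 ± 0.51, SE, 0.0417) were higher. Gm6728 was lower (-3.99 ± 0.91, SE, adjusted p = 0.0423, edgeR). Pde6h and Gm6728 had means of only 0.332 and 1.35 CPM.

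**Figure D4:**
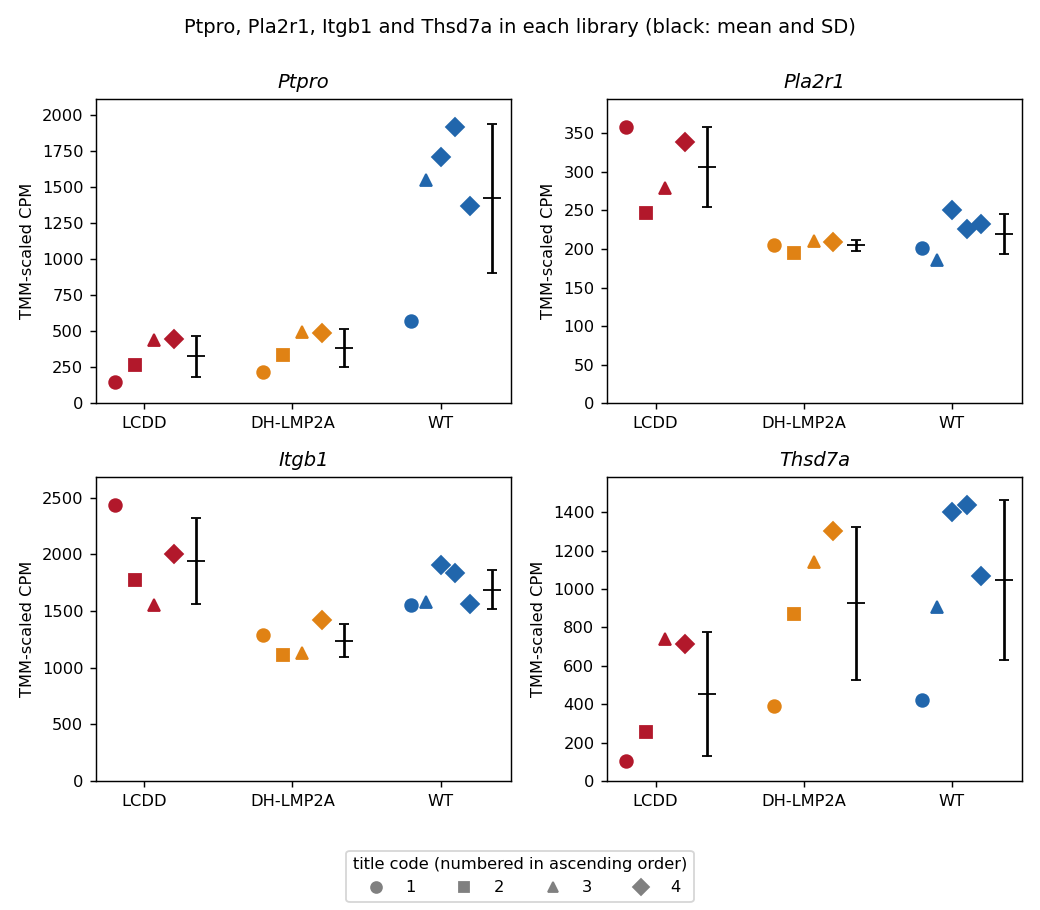
Points show the TMM-scaled CPM of Ptpro, Pla2r1, Itgb1 and Thsd7a in each library by genotype (marker shape gives the title code), with the mean and SD in black (n = 4, 4 and 5). All 8 LCDD and DH-LMP2A libraries lie at 150 to 495 CPM for Ptpro, below the 5 WT libraries at 574 to 1920, and the LCDD libraries of Pla2r1 and Itgb1 lie above those of DH-LMP2A.

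The 250 bases before the RefSeq start sites of Ptpro and Pla2r1 (GRCm38.p6) are shown because these members were the ones called without the block. The calls came from different comparisons: Ptpro was lower in LCDD against WT, and Pla2r1 was higher in LCDD against DH-LMP2A. Ptpro is at chr6:137252049-137252298 on the plus strand and Pla2r1 at chr2:60553309-60553558 on the minus strand, both written 5′ to 3′. Capitals mark matches to any of 5 motifs searched on both strands: GCGTGGG (the type bound by WT1 and EGR factors), CAGCTG (an E-box of the TCF21 type), GTAAACA (forkhead), TAATTA (LIM homeobox) and GGGCGG (the GC box, added after the data were seen).
Ptpro: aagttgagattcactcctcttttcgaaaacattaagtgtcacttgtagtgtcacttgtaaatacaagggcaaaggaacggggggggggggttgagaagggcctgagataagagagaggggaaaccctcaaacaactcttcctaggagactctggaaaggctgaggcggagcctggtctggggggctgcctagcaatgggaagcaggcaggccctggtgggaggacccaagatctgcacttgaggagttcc
Pla2r1: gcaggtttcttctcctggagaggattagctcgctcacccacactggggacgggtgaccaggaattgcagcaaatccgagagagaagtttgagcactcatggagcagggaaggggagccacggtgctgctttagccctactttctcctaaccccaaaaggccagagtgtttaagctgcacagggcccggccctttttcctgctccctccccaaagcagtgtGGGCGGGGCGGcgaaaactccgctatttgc
The Pla2r1 window held 2 overlapping GC boxes, which begin 30 and 25 bases before the start, and the Ptpro window held none of the 5 motifs. GC content was 53.6% for Ptpro and 57.6% for Pla2r1, beside a median of 52.4% over all 32851 promoters of the RefSeq table.

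Of the 37 members, 29 matched the table, with 42 promoters of 300 bases (250 before the start and 50 after). Synpo, Rhpn1, Sulf1, Podxl, Ddn, Foxc2, Wt1 and Arhgap24 were not among them. GCGTGGG was in 4 of the 42 (9.52%, against 5.04% of all promoters), in Actn4, Arhgdia, Magi2 and Thsd7a. CAGCTG was in 11.9% against 16.3%, TAATTA in 2.38% against 5.29%, and GTAAACA in 0 against 3.65%. GGGCGG was in 22 (52.4%) against 35.7%. These are matches of letters and carry no test.

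Other podocyte genes were read from lists kept apart from the members. Of 19 slit diaphragm genes tested against DH-LMP2A, 15 had lower estimates in LCDD, with a median of -0.26, and edgeR called 1 higher and 0 lower without the block. The gene called was Anln, which encodes the actin-binding protein anillin, known from cytokinesis, at 6.35 CPM or more in each LCDD library and 1.55 to 2.33 in DH-LMP2A (log2 fold change 2.24 ± 0.35, SE, adjusted p = 0.00695, edgeR). Nphs1, the gene of nephrin, had -0.73 ± 0.54 (SE, adjusted p = 0.634, edgeR) without the block and fell by 0.93 ± 0.23 (SE, adjusted p = 0.0384, edgeR) with it. With the block the adaptor gene Nck2 was also lower, at -0.51 ± 0.11 (SE, adjusted p = 0.0247, edgeR).

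Of the 10 genes of basement membrane products, edgeR called 2 higher and 0 lower in LCDD against DH-LMP2A, while 4 had positive and 6 negative estimates. The 2 called were the nidogen genes Nid1 (0.92 ± 0.21, SE, adjusted p = 0.0448, edgeR) and Nid2 (0.85 ± 0.17, SE, 0.0219), whose products link laminin and collagen IV and are made by mesangial cells as well. The list's median was -0.29. Of 24 other podocyte-enriched genes, 21 had lower estimates and 1 was called, Bcam, a laminin receptor, at 526 to 720 CPM in LCDD and 1070 to 1280 in DH-LMP2A (-0.93 ± 0.21, SE, adjusted p = 0.0395, edgeR). Bcam was also lower against WT (-0.92 ± 0.20, SE, adjusted p = 0.0327, edgeR). With the block, 2 of the 24 were called lower against DH-LMP2A and 0 higher, where 2.86% of all genes were called lower.

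Of 17 injury genes 11 had higher estimates in LCDD against DH-LMP2A, with a median of 0.32, and edgeR called 0 (4 at an unadjusted p under 0.05, and 1, Ctgf, called by DESeq2). Of 23 genes of small GTPases and actin regulation 19 had higher estimates, with a median of 0.19, and edgeR called 0 (3 at an unadjusted p under 0.05, 0 by DESeq2). Against WT the medians of these 2 lists were 0.03, with 10 of 17 positive, and 0.04, with 13 of 23 positive. Against WT, Anln (2.41 ± 0.33, SE, adjusted p = 0.00224, edgeR) and Nid2 (0.75 ± 0.16, SE, 0.028) were higher in LCDD. In DH-LMP2A against WT edgeR without the block called 0 genes of these 5 lists. Among them, 2 podocyte-enriched and 3 injury genes had an unadjusted p under 0.05. DESeq2 called 1 injury gene, Itgb3, as lower.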

How the data were processed

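Messenger RNA was measured in 13 libraries of bead-purified glomeruli. Per the labels' protocols these were stranded mRNA libraries read from both ends. The deposited values are raw counts per gene, and the annotation columns in the file headers are those of featureCounts. The submitters' processing notes name STAR 2.4.0a, featureCounts, Subread 1.5.0-p3, DESeq2 and the builds mm10 and GRCm38, without roles. The annotation and the strand setting are not given in the sources used here.

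The test was that of edgeR 4.0.16 under R 4.3.3 (filterByExpr with a minimum count of 10, TMM factors, glmQLFit and glmQLFTest, 1 coefficient per genotype, all 13 libraries, Benjamini-Hochberg adjustment over 16738 genes). A gene is called where the adjusted p is under 0.05. SE is the log2 fold change over the square root of F, and the prior count for log2 CPM is 2. The members, the comparison lists, the tests and the naming rule were chosen with earlier results of these data known. Values in every library are given for members called in any fit, for the members with the largest changes between LCDD and DH-LMP2A, and for Wt1, Synpo, Podxl and Itga3.

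Same-code LCDD and DH-LMP2A libraries had correlated deviations from their genotype means across genes (0.15 to 0.59 over 4 pairs, with a mean of 0.42). Blocked values therefore stand beside that comparison. Different-code pairs ran from -0.6 to 0.52. Their mean of -0.139 is no separate evidence, as deviations from a genotype mean cancel within the genotype. LCDD replicate 2 correlated at 0.52 with DH-LMP2A replicate 1 and at 0.15 with its same-code library, so the pairing by code is not certain. Alternatives were DESeq2 1.42.0, RLE factors, other filters, covariates, the block and leaving libraries out. The replicates are pools or single mice, so p-values measure the spread between such samples. The edgeR step was checked on simulated counts. Results for some genes of the comparison lists are not reported here.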

Additional observations from a re-analysis of the deposited data

Results flagged for a closer look

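In groups of 4 or 5 libraries, 1 library lay far from the rest by Dixon's criterion in 4 of the 111 combinations of member and genotype, and chance would give about 5.55. In WT replicate 1, Ptpro was at 9.16 log2 CPM, below the other WT libraries at 10.42 to 10.91. Magi2, a slit diaphragm scaffold gene, was at 7.38 in the same library, against 8.27 to 8.52. Itga3 was at 9.33 there, against 9.95 to 10.19. In WT replicate 2, Wtip, a WT1-interacting LIM protein gene, was at 6.29 log2 CPM, above the other WT libraries at 5.70 to 5.82.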

How the results depend on the processing

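For LCDD against DH-LMP2A, 1 member was called, and 0 were with an added minimum log2 fold change of 1, RLE factors, no low-count filter, a mean of at least 5 CPM, the podocyte covariate, only the genotypes compared, or without the libraries of codes 1 and 2 (chosen after seeing the data). DESeq2 called 2, the replicate block 4, and the block with a proximal tubule covariate 2. Leaving out single libraries gave 0 to 1.
For LCDD against WT, 1 was called, against 2 with DESeq2, 3 with the block, and 0 without the 3 single-mouse WT libraries or with the Y-linked covariate. Leaving out single libraries gave 0 to 1, where 0 came without LCDD replicate 2 or WT replicate 4.
For DH-LMP2A against WT, 0 were called, against 1 (Ptpro) with DESeq2, no low-count filter, the block, the podocyte covariate, or the block with the tubule covariate. Leaving out single libraries gave 0 to 1, where 1 came without LCDD replicate 1 or WT replicate 1.
Same-code pairs with WT had correlations down to -0.16 (means 0.216 with LCDD, 0.298 with DH-LMP2A), so the codes are not taken to pair those libraries. The block gave Ptpro -1.91 in LCDD (adjusted p = 9.9e-05, edgeR) and -1.61 in DH-LMP2A (0.000479) against WT, and called Thsd7a (-1.09, 0.049) and Pla2r1 (0.58, 0.016) in LCDD against WT. Of the 24 other podocyte-enriched genes it called 2 lower in LCDD and 1 lower in DH-LMP2A, both against WT.
Over all genes, the 334, 308 and 105 calls of the 3 comparisons became 1021, 536 and 562 with the block, 812, 726 and 458 with DESeq2, and 161, 118 and 58 at a mean of at least 5 CPM. The tubule covariate gave 865 and 434 in the first and the third, the podocyte covariate 494 in the third, and the block with the tubule covariate 635 and 36 in those comparisons. Fitting only the genotypes compared gave 213 and 185 in the first 2, leaving out codes 1 and 2 gave 45 in the first, and for the comparisons with WT leaving out the single-mouse libraries gave 54 and 69 and the Y-linked covariate 23 and 36. Leaving out single libraries gave 113 to 484, 159 to 441 and 29 to 407.
Of 2627 member estimates under alternatives, 2502 kept direction and side of the threshold within 1 SE, 15 passed it newly, 20 lost it and 90 moved, and no called value reversed. Positive estimates in LCDD against WT numbered 17 of 37 with the tubule covariate, 23 with the podocyte covariate, 9 with the block and tubule covariate and 8 without the single-mouse libraries. In DH-LMP2A against WT they numbered 30 with the block, 33 with the tubule covariate and 10 with the Y-linked covariate.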
